A study of Mus musculus with 33 samples.

Results

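Of 12898 Oct4 summits in wild type (WT) mouse embryonic stem cells (mESC), 5089 (39.5%, 95% interval 38.6 to 40.3) had no Oct4, Sox2 or Nanog summit of Uhrf1 knockout (KO) mESC within 100 bp and lay in no 10 kb window enriched for Uhrf1 in WT mESC. They are called lost bare sites here: lost because KO Oct4 was absent, bare because KO Sox2 and Nanog were absent too. The sites were defined by measured values, namely the positions of WT and KO summits and of Uhrf1 windows, so their distance from KO summits, their height and their co-binding describe the choice and were not tested. They were set beside 6166 WT Oct4 sites outside Uhrf1 windows that had a KO Sox2 or Nanog summit and no KO Oct4 summit within 100 bp (Sox2/Nanog sites), 1095 lost bare sites inside Uhrf1 windows, and 220 sites outside the windows with a KO Oct4 summit within 100 bp (kept sites). The remaining 328 WT Oct4 sites lay inside windows and had a KO summit nearby.

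ChIP-seq sequences the DNA that an antibody pulls down with a factor or a modified histone. It was performed on E14 mESC of WT or Uhrf1 KO genotype, undifferentiated or differentiated as embryoid bodies (EBs) for 1, 2 or 3 weeks. H3K4me3 and H3K27me3 were measured at all stages, and H3K9me3, Oct4, Sox2 and Nanog in undifferentiated cells of both genotypes, while Uhrf1 was measured in WT mESC. Of 33 samples, 25 had a list of regions and 8 were inputs, which were not analysed here. Both lines were obtained from another laboratory and were grown with leukemia inhibitory factor on gelatin or on mouse embryonic fibroblasts, and the labels do not say whether the KO line was 1 clone. There was 1 library for each mark or factor, genotype and stage, so replicate error is unknown, no p-value is given, and every interval is a 95% interval that covers counting error over sites only.

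Oct4, encoded by Pou5f1, is a POU-domain factor that binds an octamer of DNA and, next to a Sox motif, a composite element together with Sox2. With Nanog it maintains the undifferentiated state of embryonic stem cells, mostly from enhancers away from gene starts. Uhrf1 recognises hemi-methylated DNA and H3K9me3 and recruits Dnmt1, which keeps DNA methylation through replication. H3K4me3 marks active promoters, H3K27me3 is laid down by the Polycomb complex PRC2, H3K9me3 marks heterochromatin, and promoters with both H3K4me3 and H3K27me3 are called bivalent.

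The first 5 lost bare sites shown, with the Oct4 octamer ATGCAAAT within 50 bp of the summit, carry the motif of the factor that was measured. They are printed from 50 bases before to 50 bases after the summit on the plus strand of mm9 (NCBIM37), with the motifs searched in capitals (ATTTGCAT is the octamer on the minus strand). The Pappa site was at chr4:64899673-64899773, the Cdx2 site at chr5:148118930-148119030, the Mef2c site at chr13:83878035-83878135, the Tdg site at chr10:82115449-82115549 and the Col3a1 site at chr1:45047901-45048001, each named by the protein-coding gene whose start is nearest.
Pappa: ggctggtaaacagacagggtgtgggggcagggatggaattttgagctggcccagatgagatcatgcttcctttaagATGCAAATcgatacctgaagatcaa
Cdx2: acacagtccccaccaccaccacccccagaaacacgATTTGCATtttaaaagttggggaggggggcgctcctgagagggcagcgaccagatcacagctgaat
Mef2c: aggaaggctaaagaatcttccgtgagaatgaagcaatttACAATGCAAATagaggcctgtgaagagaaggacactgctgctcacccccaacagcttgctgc
Tdg: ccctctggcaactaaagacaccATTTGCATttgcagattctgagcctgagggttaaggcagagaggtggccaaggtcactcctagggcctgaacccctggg
Col3a1: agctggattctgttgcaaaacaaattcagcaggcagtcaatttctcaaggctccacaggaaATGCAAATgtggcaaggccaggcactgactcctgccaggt
In the Mef2c site the capitals run over the octamer and, on the minus strand, the Sox motif CATTGT, which overlap by 3 bases.

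Of 2 further kinds of sequence, the first is a Sox motif without an octamer, as at the tall sites near the pluripotency genes Sox2 (chr3:34660412-34660512) and Klf4 (chr4:55477331-55477431), where CTTTGT or its reverse complement ACAAAG is in capitals. The second is a stretch of 20 bases, in capitals, that more lost bare sites held than any other stretch of that length, shown in the tallest site that held it, an intergenic site at chr5:7085956-7086056 whose nearest gene start was that of Zfp804b. This site was picked after its values were seen.
Sox2: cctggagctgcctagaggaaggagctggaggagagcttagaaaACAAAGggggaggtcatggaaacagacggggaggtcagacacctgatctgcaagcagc
Klf4: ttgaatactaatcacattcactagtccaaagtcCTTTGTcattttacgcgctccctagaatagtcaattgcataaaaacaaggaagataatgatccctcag
Zfp804b: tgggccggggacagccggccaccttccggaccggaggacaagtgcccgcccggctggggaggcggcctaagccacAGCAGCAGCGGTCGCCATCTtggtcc

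Lost bare sites were mostly low. Their WT Oct4 height, the number of reads at the summit, ran from 11 to 156 with a median of 31 (25th to 75th percentile 24 to 40), against a median of 47 at Sox2/Nanog sites, 23 at lost bare sites inside Uhrf1 windows and 97.5 at kept sites. When the 12898 WT Oct4 sites were ranked by height and cut into 5 equal groups, lost bare sites made up 56.4% of the lowest group and 52.8%, 45.9%, 30.2% and 11.98% of the following ones. Thus 309 lost bare sites stood in the tallest group, at 58 reads or more. The KO Oct4 list held 576 summits, and the study's sequencing summary lists fewer mapped reads for that library than for the WT one, so lower depth and loss of binding at low sites cannot be told apart.

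**Figure D1:**
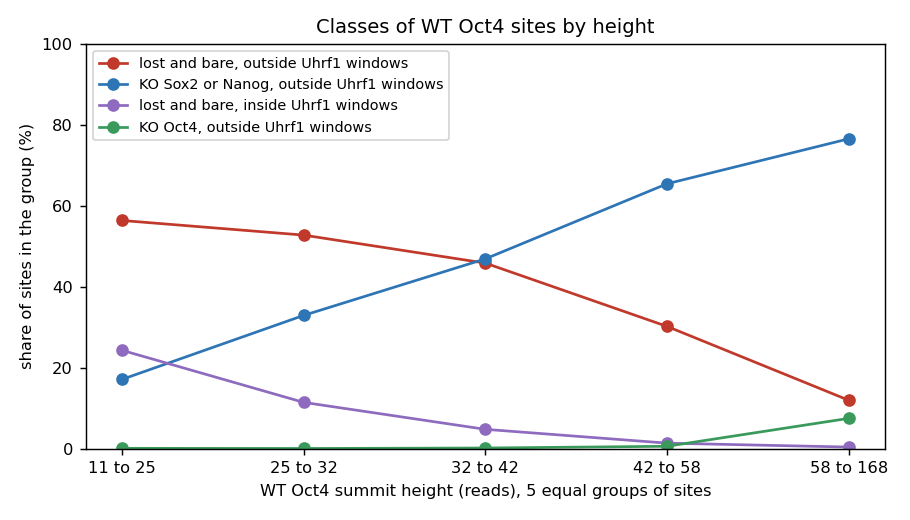
Share of WT Oct4 sites (vertical axis, percent) that belong to each class, in 5 equal groups of sites ranked by WT Oct4 height (horizontal axis, reads at the summit; equal heights at a border are split). Lost bare sites outside Uhrf1 windows went from 56.4% of the lowest group to 11.98% of the tallest, while Sox2/Nanog sites went from 17.1% to 76.6%.

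The distance from a lost bare site to the nearest KO summit of the 3 factors had a median of 19633 bp, and 1258 sites (24.7%) had none within 100 kb. Just beyond the 100 bp limit, 373 sites had their nearest KO summit at up to 150 bp (283 Sox2 and 90 Nanog) and a further 132 at up to 200 bp (99 Sox2 and 33 Nanog). Just within it, 1020 sites outside Uhrf1 windows had a KO summit at 51 to 100 bp. Median WT heights were 37.5 reads for these 1020 sites, 32 for the 373 and 28 for the 132, with no break at the limit. With no KO summit within 1000 bp, 3915 of the 5089 sites remained. Of the lost bare sites, 120 lay within 1000 bp of a Uhrf1 window and 531 (10.4%) within 10 kb, against 4.05% of Sox2/Nanog sites within 10 kb.

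In WT cells few lost bare sites were shared with the other factors. The WT lists held 5190 Sox2 and 2390 Nanog summits, against 20755 and 10632 in the KO lists. How list length shapes the classes and these shares was not tested. Of all WT Oct4 sites, 24.2% had a WT Sox2 and 12.9% a WT Nanog summit within 100 bp. A WT Sox2 summit lay within 100 bp of 349 sites (6.86%), a WT Nanog summit within 100 bp of 87 (1.71%), and both near 40. Among Sox2/Nanog sites 40.0% had WT Sox2 and 22.1% WT Nanog, and among kept sites 85.0% and 73.6%. The 396 lost bare sites with WT Sox2 or Nanog were taller (median 40 reads against 30) and lay more often in a WT mESC H3K4me3 domain (58.8% against 30.1%) than the 4693 with neither.

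The octamer was concentrated at the summits of lost bare sites. Within 50 bases of the summit it was found on either strand at 395 of 4913 sites with sequence (8.04%, 7.31 to 8.83), beside 8.82% of all WT Oct4 sites and 0.611% of windows of the same length 1 kb to either side. Over these sites 312 octamers were centred within 25 bp of the summit, against 54 to 78 in each stretch of 200 bp between 100 and 500 bp away. Sox2/Nanog sites held it more often (10.2%), by a difference of -2.20 percentage points (-3.27 to -1.12), but that difference turned to 0.771 points (-0.298 to 1.84) when sites were compared within the 5 height groups. In the tallest group 51 of 305 lost bare sites had the octamer (16.7%, 12.95 to 21.3), against 12.8% of Sox2/Nanog sites, and in the lowest group 2.60% against 2.26%.

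**Figure D2:**
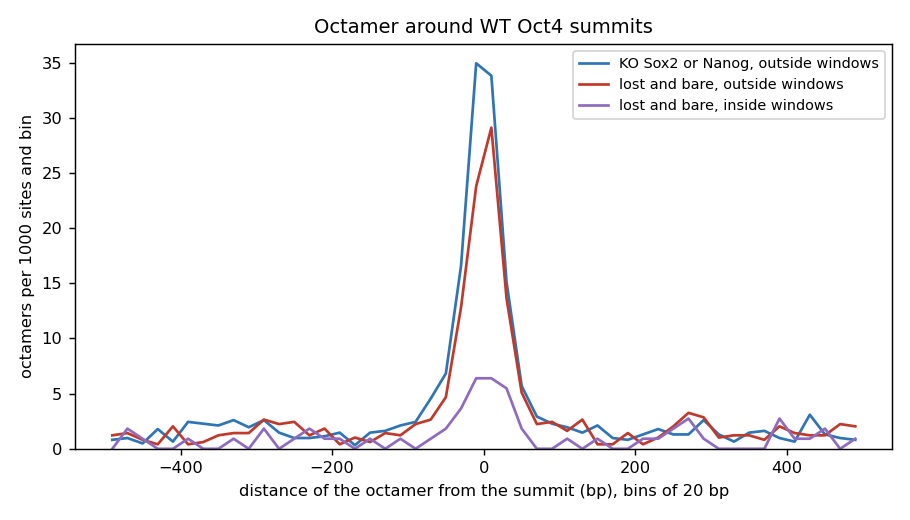
Number of octamers ATGCAAAT on either strand per 1000 sites (vertical axis) in bins of 20 bp by distance from the WT Oct4 summit (horizontal axis, bp), for lost bare sites outside and inside Uhrf1 windows and for Sox2/Nanog sites. Outside the windows both classes peaked at the summit, with 395 of 4913 lost bare sites and 630 of 6151 Sox2/Nanog sites holding the octamer within 50 bases of the summit.

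Sox motifs stood closer to their local level at lost bare sites than at Sox2/Nanog sites. A KO Sox2 or Nanog summit divides these classes by definition, so this contrast may follow from the choice and was not tested. CATTGT was found in 4.32% of lost bare sites (3.78 to 4.92) and 4.85% of their flanks, whereas Sox2/Nanog sites had it in 12.2% against 5.59% of flanks. CTTTGT was found in 9.18% of lost bare sites (8.40 to 10.02) and 8.06% of flanks, and in 19.2% and 8.96% for Sox2/Nanog sites. The composite element TTGTNATGC, which places a Sox motif beside the start of the octamer, was present at 149 lost bare sites (3.03%, 2.59 to 3.55) and 0.204% of their flanks, and at 7.14% of Sox2/Nanog sites (6.52 to 7.81) and 0.317% of flanks. From the lowest to the tallest height group it was at 0.491%, 3.27%, 4.08%, 4.97% and 5.25% of lost bare sites, against 1.58%, 3.30%, 6.80%, 8.73% and 8.88% of Sox2/Nanog sites. The GC box GGGCGGGG was found in 2.34% of lost bare sites and the Esrrb motif TCAAGGTCA in 0.733%, beside 1.90% and 0.977% of all WT Oct4 sites.

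**Figure D3:**
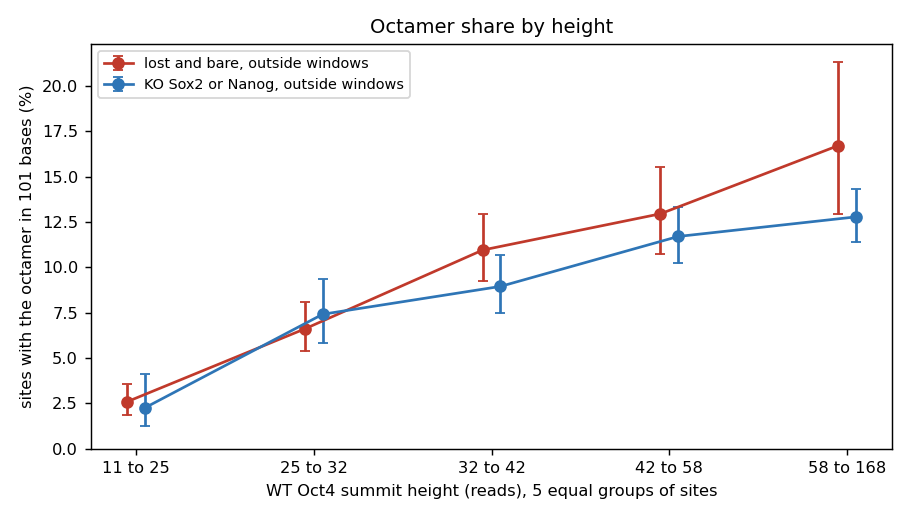
Share of sites with the octamer within 50 bases of the summit (vertical axis, percent, bars are Wilson 95% intervals) in 5 equal groups by WT Oct4 height (horizontal axis, reads at the summit). Lost bare sites went from 2.60% in the lowest group to 16.7% in the tallest and Sox2/Nanog sites from 2.26% to 12.8%, with overlapping intervals in every group.

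Lost bare sites were richer in G, C and CpG than Sox2/Nanog sites at the summit. Their median GC content was 51.5% within 50 bases of the summit and 43.6% in the flanks, against 48.5% and 45.05% for Sox2/Nanog sites. They held on average 3.21 CpG in that window and 1.45 in flanks of the same length, against 1.75 and 1.26. In all, 31.5% of lost bare sites had 5 CpG or more, as did 65.8% of lost bare sites inside Uhrf1 windows and 10.2% of Sox2/Nanog sites.

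A repeated sequence made up part of these CpG-rich sites. The 20 bases shown above in the Zfp804b site, or their reverse complement, were present at 467 of 4913 lost bare sites (9.51%), at 332 of 1095 lost bare sites inside Uhrf1 windows (30.3%), at 54 of 6151 Sox2/Nanog sites (0.878%) and at 0 of 210 kept sites with sequence, where the Wilson interval reaches 1.80%. The stretch was picked as the most frequent one among the lost bare sites, so these shares are a description. The 467 sites lay on 20 chromosomes, 344 of them in intergenic sequence, had heights of 14 to 62 reads with a median of 24, and held 7.29 CpG on average. H3K4me3 was found at 2.998% of them in WT mESC, H3K27me3 at 48.8% and H3K9me3 at 54.6%. In a separate count, not limited to the 20 bases, 267 lost bare sites had the same sequence within 50 bases of the summit as another WT Oct4 site. There were 169 different sequences among them. Since 1 alignment was kept per read, reads from identical copies cannot be assigned to a copy with certainty.

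A further 176 lost bare sites (3.46%) were on sequence not placed on a chromosome, 147 of them on unplaced Y sequence, where 147 of 156 WT Oct4 sites were lost bare sites. None of the 19 lists of domains or Uhrf1 windows names such sequence, so these sites count as unmarked and outside windows by construction, and their bases were not read here. On assembled chromosomes, 38.7% of WT Oct4 sites were lost bare sites.

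By position, 3250 lost bare sites (63.9%) were intergenic, 1616 (31.8%) intronic, 102 in untranslated regions, 68 in coding exons and 53 in exons of non-coding genes. Their median distance from the start of a protein-coding gene was 43764 bp, against 30606 bp for Sox2/Nanog sites and 100853 bp for lost bare sites inside Uhrf1 windows. Within 2 kb of a gene start, taken here as the promoter, lay 471 sites (9.26%), beside 9.02% of all WT Oct4 sites. The difference from Sox2/Nanog sites was -0.816 points (-1.91 to 0.285), 0.386 without sites that held the frequent 20 bases, -3.055 within 5 kb of a start, -6.68 with no KO summit allowed within 1000 bp, and -6.62 points (-8.26 to -4.99) within height groups, where 14.2% of the lowest lost bare sites were at promoters against 28.3% of the lowest Sox2/Nanog sites. Promoter sites among the lost bare sites were lower than the others (median 27 against 31 reads) and held more CpG (5.91 against 2.92 on average).

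In WT mESC, lost bare sites carried H3K4me3 less often than Sox2/Nanog sites and far more often than lost bare sites inside Uhrf1 windows. Of the 5089 sites, 1646 (32.3%, 31.1 to 33.6) lay in an H3K4me3 domain, beside 38.0% of all WT Oct4 sites and 8.14% of the genome covered by such domains. The difference was -17.2 points (-18.95 to -15.4) from Sox2/Nanog sites, at 49.5%, and 28.5 points (26.7 to 30.1) from lost bare sites inside windows, at 3.84%. It was largest for low sites: in the lowest height group 30.2% of lost bare sites and 58.6% of Sox2/Nanog sites were in H3K4me3 domains, and in the tallest group 50.8% and 58.1%. Without sites that held the frequent 20 bases, the difference from Sox2/Nanog sites was -13.3 points, and with no KO summit allowed within 1000 bp it was -25.8.

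H3K27me3 domains of WT mESC held 1626 lost bare sites (32.0%, 30.7 to 33.2), beside 30.9% of all WT Oct4 sites and 36.1% of the genome. That was 4.66 points above Sox2/Nanog sites (2.96 to 6.35) and -13.1 points from lost bare sites inside windows (-16.3 to -9.87), or -8.60 points within height groups. H3K9me3 held 2261 (44.4%, 43.1 to 45.8), beside 41.6% of all WT Oct4 sites and 37.2% of the genome, 6.98 points above Sox2/Nanog sites (5.16 to 8.80) and -7.72 points from lost bare sites inside windows (-10.96 to -4.46). The comparison with window sites rests on few tall ones, since 11 of the 1095 were in the tallest height group. Without that group the H3K27me3 difference within height groups was -10.3 points. Taken as combinations, 1379 lost bare sites (27.1%) were in no domain of the 3 marks, beside 25.6% of all WT Oct4 sites. H3K4me3 alone was at 901 (17.7%, beside 21.5%), H3K9me3 alone at 876 (17.2%, beside 14.8%) and both repressive marks without H3K4me3 at 842 (16.5%, beside 14.8%). H3K4me3 and H3K27me3 together, with or without H3K9me3, were at 438 bivalent sites (8.61%, beside 9.22%).

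**Figure D4:**
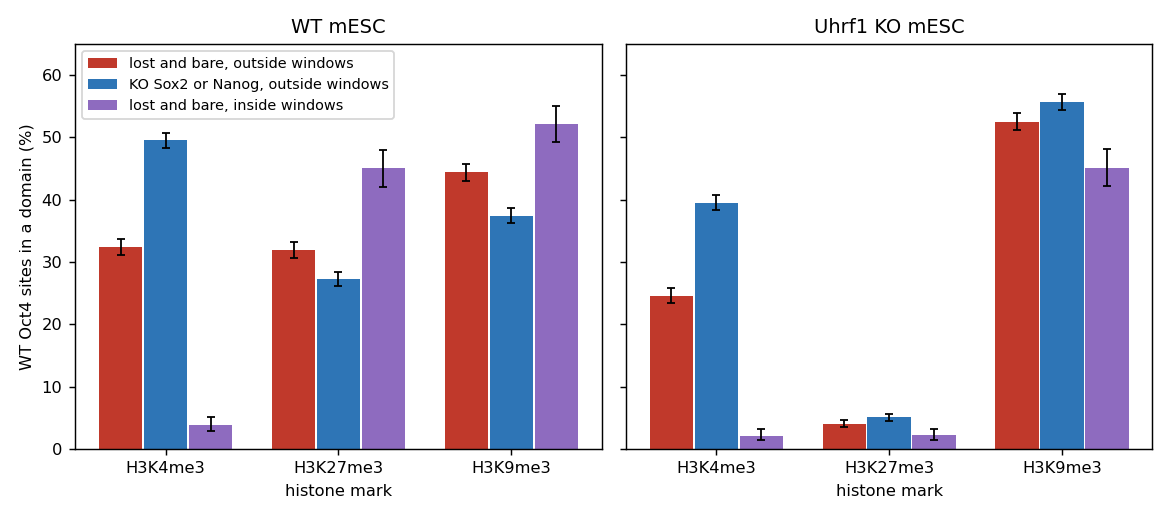
Share of WT Oct4 sites in a histone domain (vertical axis, percent, bars are Wilson 95% intervals) for 3 marks in WT mESC (left) and Uhrf1 KO mESC (right), for lost bare sites outside Uhrf1 windows, Sox2/Nanog sites outside windows and lost bare sites inside windows. Lost bare sites outside windows stood between the other classes for each mark in WT mESC, at 32.3% for H3K4me3, 32.0% for H3K27me3 and 44.4% for H3K9me3.

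To ask how these marks stood without Uhrf1, the same sites were read in the KO lists. In KO mESC 1252 lost bare sites (24.6%) were in an H3K4me3 domain, beside 29.8% of all WT Oct4 sites, a difference from WT of -7.74 points (-8.65 to -6.84), or -4.38 points with domains at or above the median score of each list. The H3K4me3 list covered 7.10% of the genome in KO mESC and 8.14% in WT mESC, and its part in this difference was not tested. Both genotypes marked 1157 sites, WT alone 489 and KO alone 95. Thus 70.3% of the WT-marked sites (68.0 to 72.5) kept H3K4me3, beside 72.1% of all WT Oct4 sites with the mark and 73.1% of Sox2/Nanog sites, a difference of -2.85 points (-5.58 to -0.162) from the latter, or -9.91 points when no KO summit was allowed within 1000 bp.

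H3K27me3 was nearly gone from the KO list at these sites: 203 (3.99%) were in a KO domain, beside 4.33% of all WT Oct4 sites, a difference of -28.0 points (-29.25 to -26.7) from WT. The KO list as a whole covered 3.17% of the genome against 36.1% for WT, and beside that the share at all WT Oct4 sites differed by -26.6 points. H3K9me3, whose domains covered 40.9% of the genome in KO, held 2671 lost bare sites (52.5%), beside 53.2% of all WT Oct4 sites, a difference of 8.06 points (6.63 to 9.48) from WT, with 908 sites marked in KO alone and 498 in WT alone. The same difference was larger at all WT Oct4 sites (11.6 points), at Sox2/Nanog sites (18.3) and at kept sites (20.45). For lost bare sites above the median WT height the difference was 13.7 points. Inside Uhrf1 windows the H3K9me3 difference at lost bare sites had the other sign, at -7.03 points (-9.42 to -4.62).

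By combination, 205 of the 438 bivalent lost bare sites (46.8%, 42.2 to 51.5) had H3K4me3 without H3K27me3 in KO mESC, 135 (30.8%) had neither, 52 (11.9%) stayed bivalent and 46 (10.5%) had H3K27me3 without H3K4me3. Sox2/Nanog sites split in much the same way, with 48.7%, 29.8%, 12.9% and 8.63% of 672. Of the 901 sites with H3K4me3 alone of the 3 marks in WT, 327 (36.3%) were the same in KO and 356 (39.5%) lay in H3K4me3 and H3K9me3 domains. Of the 842 sites with both repressive marks in WT, 601 (71.4%) were left with H3K9me3 in KO. These last splits were not computed for all WT Oct4 sites. Of all WT Oct4 sites with H3K9me3 in WT, 79.2% kept it in KO, as did 78.0% of lost bare ones. H3K4me3 and H3K9me3 without H3K27me3 went from 6.03% in WT to 14.05% in KO at lost bare sites. At all WT Oct4 sites this combination went from 7.24% to 18.05%.

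In EBs the order of the genotypes depended on mark and week. H3K4me3 marked 862 lost bare sites (16.9%) in WT and 570 (11.2%) in KO at week 1, a difference of -5.74 points (-6.44 to -5.05), beside 17.4% and 11.2% of all WT Oct4 sites. At week 2 it marked 25.1% in WT and 27.6% in KO, 2.46 points higher in KO (1.58 to 3.33), beside 28.6% and 34.1% of all sites. At week 3 the shares were 27.2% and 29.6%, 2.32 points higher in KO (1.57 to 3.07), beside 32.8% and 36.5%. The KO lists thus held fewer lost bare sites in H3K4me3 domains at week 1 and more in weeks 2 and 3. The excess was 0.786 points at week 2 and 1.36 at week 3 when domains at or above the median score of each list were used. It was 4.16 and 3.96 points at sites above the median height. At weeks 1, 2 and 3 the H3K4me3 lists covered 4.03%, 7.75% and 6.10% of the genome in WT. In KO they covered 2.76%, 5.82% and 6.24%. Whether coverage accounts for the H3K4me3 shares was not tested.

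H3K27me3 marked 416 lost bare sites (8.17%) in WT and 476 (9.35%) in KO EBs at week 1, 1.18 points higher in KO (0.549 to 1.82) and 1.98 at sites above the median height, beside 9.04% and 10.3% of all WT Oct4 sites. At week 2 the shares were 40.2% and 18.2%, a difference of -22.0 points (-23.5 to -20.5), or -13.5 at sites above the median height, beside 36.3% and 18.6% of all sites. At week 3 they were 28.7% and 16.7%, a difference of -11.95 points (-13.1 to -10.8), beside 27.9% and 16.5%. The WT week 2 and week 3 lists covered 43.9% and 29.8% of the genome, the KO ones 17.6% and 15.8%, and the week 1 lists 3.81% and 6.78%, and over the 8 H3K27me3 lists the order of the shares was the order of the covered lengths. Whether coverage accounts for the shares was not tested. At week 2, 40.2% of lost bare sites were 9.99 points above Sox2/Nanog sites in WT (8.22 to 11.75).

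**Figure D5:**
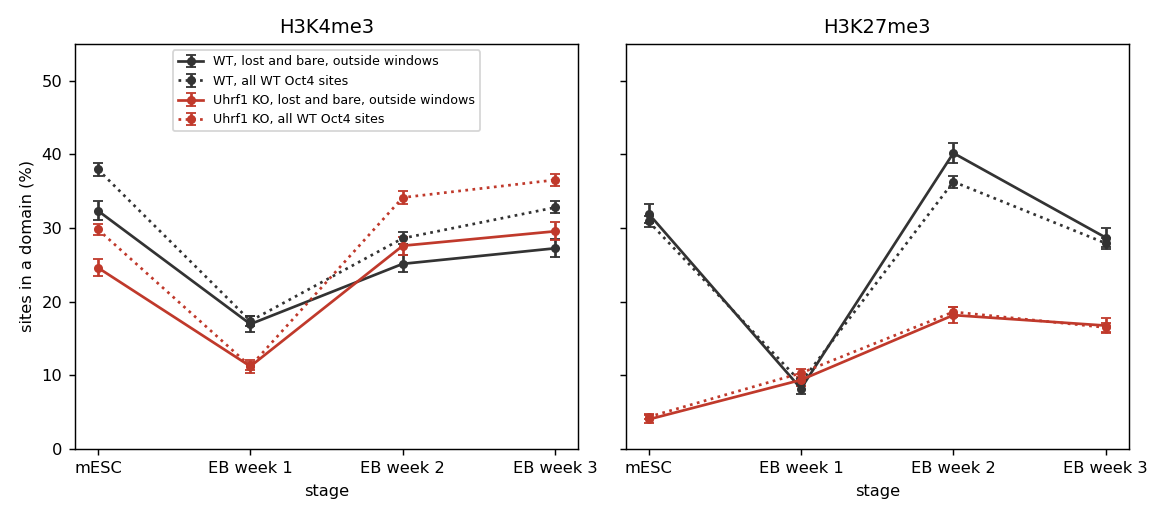
Share of sites in an H3K4me3 (left) or H3K27me3 (right) domain (vertical axis, percent, bars are Wilson 95% intervals) by stage (horizontal axis), in WT and Uhrf1 KO, for lost bare sites (solid) and all WT Oct4 sites (dotted). H3K4me3 at lost bare sites was lower in KO in mESC and at week 1 and higher at weeks 2 and 3, and H3K27me3 was lower in KO at each stage but week 1.

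Followed site by site, 1228 of the 1646 lost bare sites with H3K4me3 in WT mESC (74.6%) also had it in WT EBs at week 3, 757 (46.0%) had it at all 3 weeks and 331 (20.1%) at no week, beside 74.3%, 39.1% and 20.6% of all WT Oct4 sites with the mark. In KO, 1068 of 1252 (85.3%) had it at week 3, 498 (39.8%) at all 3 weeks and 135 (10.8%) at no week, beside 85.4%, 31.4% and 10.4% of all sites with the mark. Of sites without H3K4me3 in mESC, 258 of 3443 (7.49%, 6.66 to 8.42) were in an H3K4me3 domain at 1 week or more in WT and 576 of 3837 (15.0%, 13.9 to 16.2) in KO, beside 11.0% and 20.7% of all WT Oct4 sites without it. Promoter and distal sites differed in level: in WT mESC 415 of 471 promoter sites (88.1%) and 1231 of 4618 distal sites (26.7%) had H3K4me3, and in KO mESC 80.7% and 18.9%.

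Genes near lost bare sites were spread widely. The sites were nearest to the start of 3476 of 22238 protein-coding genes (15.6%), 2565 of which had 1 site and 56 of which had 5 or more. A WT Oct4 site of any class was nearest to the start of 6563 of the 22238. By lists of genes chosen with earlier results of these data known, 5 of 12 core pluripotency genes, 9 of 17 naive pluripotency genes, 13 of 22 neuroectoderm genes, 7 of 24 mesoderm and cardiac genes, 5 of 18 endoderm genes and 11 of 20 signal genes were nearest to at least 1 site. Further, 3 of 10 DNA methylation enzymes, 4 of 18 subunits of Setd1a/COMPASS and PRC2, 2 of 11 trophoblast genes, 1 of 14 germline genes silenced by methylation and 0 of 14 annotated 2-cell stage genes had one. These genes draw many Oct4 sites of every kind: 10 of the 12 core and 16 of the 17 naive pluripotency genes were nearest to a WT Oct4 site, and of these genes' sites 15 of 42 and 18 of 81 were lost bare ones. Likewise 16 of 22 neuroectoderm, 12 of 24 mesoderm and cardiac, 9 of 18 endoderm and 20 of 20 signal genes had WT Oct4 sites. Of those sites 20 of 51, 12 of 31, 7 of 19 and 22 of 63 were lost bare ones. WT Oct4 sites were nearest to 7 of the 10 DNA methylation enzymes and 13 of the 18 Setd1a/COMPASS and PRC2 subunits. They were nearest to 5 of 11 trophoblast, 2 of 14 germline and 3 of 14 annotated 2-cell stage genes. In that order, 4 of 18, 9 of 38, 2 of 9, 2 of 4 and 0 of 5 sites were lost bare ones. A further 10 of 24 listed 2-cell stage genes were not annotated, so the 0 says little of them. Among all WT Oct4 sites the share was 39.5%. Near core genes the lost bare sites included 6 of 16 sites at Sox2, 3 of 4 at Lin28a and 2 of 3 at Pou5f1.

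Promoters with a lost bare site were more often bivalent in WT mESC than promoters at large. Of 458 gene entries with a site within 2 kb, 272 (59.4%) were active, with H3K4me3 within 2 kb and no H3K27me3 within 5 kb, and 144 (31.4%) bivalent, against 44.8% and 18.3% of all 22380 protein-coding genes, and 61.4% and 30.2% of 572 genes with a Sox2/Nanog site and no lost bare site there. In KO mESC 256 of the 272 active promoters (94.1%) stayed active and 18 of the 144 bivalent ones (12.5%, 8.06 to 18.9) stayed bivalent, beside 14.6% for all bivalent promoters. In KO EBs, 59.6%, 79.6% and 60.8% of the promoters bivalent in WT at weeks 1, 2 and 3 were bivalent too, beside 50.9%, 54.5% and 46.7% of all genes.

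Among the listed genes, lineage regulators and pluripotency genes with a site within 2 kb were followed by stage. Pou5f1 had a site of 95 reads 931 bp upstream of its start (summit at chr17:35642051), at which WT Nanog had a summit of 84 reads 2 bp away and the nearest KO summits of all 3 factors were 1041 to 1063 bp away. Its promoter was bivalent in WT mESC and WT week 1 EBs, active in KO mESC, without mark in KO week 1 EBs and active in both genotypes afterwards. Sox2 had sites of 50 and 18 reads 981 bp upstream and 4 bp downstream of its start, and its promoter was bivalent in WT mESC, active in KO mESC and bivalent in every EB list. H3K27me3 domains covered 36.1% of the genome in WT mESC and 3.17% in KO mESC, which bears on these bivalent calls. Cdx2, a homeobox regulator of trophoblast and gut, had the site of 68 reads with an octamer shown above, 134 bp upstream of its start, and was bivalent in both genotypes in mESC and at weeks 1 and 3. The summit itself was in H3K4me3 domains of WT EBs at all 3 weeks and of KO EBs at none. Wnt8a, a Wnt ligand, had a site of 99 reads 323 bp upstream and was bivalent in mESC of both genotypes, and repressive in KO against bivalent in WT at week 1.

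The neural genes Neurog2 and Six3 had sites of 14 and 18 reads 360 and 18 bp upstream, and both promoters were bivalent in WT and repressive in KO EBs at week 1. In mESC the Six3 promoter was bivalent in WT and repressive in KO, that of Neurog2 bivalent in both, and that of Zic1, with a site of 14 reads, bivalent in WT and without mark in KO. Foxa2, an endoderm pioneer factor, had a site of 24 reads 523 bp downstream of its start and was bivalent in every list but KO mESC, where it was repressive. The promoter of Tubb3, a neuronal tubulin, with a site of 22 reads, was active in both genotypes in mESC, and that of Fgfr1, an FGF receptor, with a site of 23 reads, was bivalent in WT and active in KO mESC. Lin28a, an RNA-binding regulator of let-7, and the genes Ezh1, Dusp6, Smad7 and Skil had sites of 17 to 41 reads at promoters that were active in all 8 stages and genotypes. In all, 16 listed genes had such a site: 3 of 12 core pluripotency, 4 of 22 neuroectoderm, 3 of 18 endoderm and 5 of 20 signal genes. The last was 1 of 18 Setd1a/COMPASS and PRC2 subunits. Of all protein-coding genes 454 of 22238 (2.04%) had one. No gene of the naive, mesoderm and cardiac, trophoblast, germline, 2-cell or DNA methylation lists did. Those lists hold 10 to 24 annotated genes, too few to tell 0 from a share of 2.04%.

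The 10 tallest lost bare sites had 111 to 156 reads, and 9 were in introns. WT Nanog had a summit within 100 bp of 4 of them, WT Sox2 of 1, and 2 had a KO summit within 500 bp. The tallest, of 156 reads (summit at chr11:51547932), was in an intron of Sec24a, a coat protein of secretory vesicles, in H3K9me3 domains of both genotypes and 21896 bp from the nearest KO Sox2 summit. Sites of 146 and 138 reads lay in Sfi1, a centrosome gene, where H3K4me3, H3K27me3 and H3K9me3 overlapped in WT mESC and H3K27me3 was absent in KO. Both were also in H3K4me3 and H3K27me3 domains of every EB list, with KO Oct4 summits 4849 and 2580 bp away. Inputs were not used, so background signal in this stretch was not tested. A site of 125 reads at chr6:3151229, whose nearest gene was Samd9l, had KO summits of all 3 factors at 263 to 288 bp, beyond the 100 bp limit. WT Sox2 and Nanog summits lay 180 and 268 bp away, with 280 and 70 reads. This site too was in H3K4me3 and H3K27me3 domains of every EB list, and background signal there was not tested. The Pappa site of 111 reads, in an intron of a gene for an IGFBP protease, had an octamer, WT Sox2 and Nanog summits at 70 and 86 bp, and KO Nanog and Sox2 summits at 102 and 116 bp, just outside the limit.

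Away from promoters, further sites were picked as the tallest whose nearest gene start was that of a listed gene, which does not assign them to that gene. Near Klf4, a naive pluripotency factor, a site of 98 reads stood 67966 bp downstream of the gene start, in no domain in WT mESC and in H3K9me3 in KO, with WT Nanog 87 bp away and KO Sox2 and Nanog at 111 and 118 bp. Near Sox2 a site of 78 reads stood 111535 bp downstream in H3K4me3 in both genotypes, with KO Sox2 and Nanog both at 117 bp. Near Eed, a PRC2 subunit, sites of 94 and 57 reads had H3K4me3 in WT mESC, and in KO mESC the taller was in H3K9me3 without H3K4me3. Dnmt3b, a de novo DNA methyltransferase, had a site of 74 reads 7569 bp upstream, with WT Sox2 and Nanog at 24 and 79 bp, KO Nanog at 108 bp and H3K4me3 in both genotypes. Otx2, a homeobox gene of neuroectoderm, had a site of 69 reads with WT Sox2 and Nanog at 30 and 50 bp and the nearest KO summit at 491 bp, in H3K4me3 domains of all lists but KO week 1. Of the 41 sites named by height or list, 7 had a KO summit within 200 bp, as did 505 of all 5089.

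The genes nearest to the most lost bare sites had them spread over long stretches. Jmjd1c, a member of the histone demethylase family of JmjC proteins, and Pcdh7, a protocadherin, had 10 each of 16 WT Oct4 sites, spread over 1023112 and 3520532 bp. Of the Jmjd1c sites, at 20 to 51 reads, 6 had H3K4me3 in WT mESC and 4 in KO. Of the Pcdh7 sites, at 16 to 37 reads, 10 lay in H3K9me3 and 7 in H3K27me3, and 1 in H3K4me3. Tsn had 9 of 13 WT Oct4 sites, Pcmtd1 and Tbl1xr1 9 of 23 each, and Myc 8 of 15. At Dsc3, a desmosomal cadherin, all of the 8 WT Oct4 sites were lost bare ones. These genes were picked by their number of lost bare sites, which made up 39.5% of all WT Oct4 sites. The Myc sites, at 20 to 50 reads and up to 784909 bp from the gene start, included 2 in H3K4me3 in each genotype, and the Myc promoter was bivalent in WT and active in KO mESC. Olfm4, Gdi2 and Spanxn4 had 7 each, of 10, 11 and 12 WT Oct4 sites, with 6, 7 and 7 in H3K9me3. Few sites crowded together, with 722 of 5089 (14.2%) within 10 kb of another lost bare site.

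As a check of the labels, 7 of 8 mESC marker genes (Pou5f1, Sox2, Nanog, Zfp42, Esrrb, Klf4, Tdgf1 and Utf1) had H3K4me3 within 2 kb of their start in WT and in KO mESC. The same number had it in EBs of both genotypes at weeks 2 and 3, and 5 in WT and 2 in KO EBs at week 1, so the check does not separate mESC from EBs of weeks 2 and 3. In WT mESC, 4 of the mESC markers were active, with H3K4me3 and no H3K27me3 within 5 kb, and in KO mESC 7 were. Of 8 fibroblast markers, 4 had H3K4me3 in WT mESC and 3 in KO mESC, with H3K27me3 at each of the 4 in WT and at 1 of the 3 in KO. In EBs of both genotypes at weeks 2 and 3, 8 fibroblast markers had H3K4me3. The part of feeder cells in the results was not tested. The promoter of Uhrf1 had H3K4me3 in all 8 stages and genotypes, which does not check the knockout.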

How the data were processed

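ChIP-seq reads were mapped to mm9 with Bowtie2 2.1.0, which the submitters' processing notes name with MACS, and 1 alignment was kept per read, so the copy among identical sequences that a read came from is not determined. Factor summits were called by the authors with MACS, and the deposited height is the signal, in reads, at the summit, with no stated scaling to depth. Histone domains were called by the authors with RSEG, and the deposited lists give for each domain a signal (the mean reads in its bins) and a score, larger for longer domains. The deposited Uhrf1 list holds 10 kb windows without a score, fold or p-value. Total reads per sample are not in these lists and heights were not scaled by them here. The study's sequencing summary lists mapped reads, fewer for KO than WT Oct4. The lists were called per library.

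Distances between summits, overlap with domains, and position relative to 22380 protein-coding genes of the NCBIM37 (mm9) annotation were computed with Python 3.11, numpy 2.4.6, scipy 1.17.1, pandas 2.3.3 and matplotlib 3.10.9. None of 530 pairs of list and chromosome ran past the chromosome's end. A site counted as marked when its summit lay in a domain. Shares have Wilson, differences Newcombe and differences at the same sites paired Newcombe 95% intervals. Distance and domain calls were tested on simulated data, with 0 wrong calls at 12898 sites each. Motifs were searched on both strands, and ATGCAAAT is included in ATGCNAAT.

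The members and lists were chosen with earlier results of these data known. The named sites were the 10 tallest and up to 3 of the tallest for each gene list, and the named genes the 10 nearest to the most sites, with ties by fewer WT Oct4 sites. Listed genes with a site within 2 kb were added after their values were seen. Some named items are not reported here. Alternatives were the distance limit, the distance from Uhrf1 windows, the domain score, WT height, the promoter limit, the motif and its window, and 3 chosen after seeing the data. The 8 inputs were not used here.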

Additional observations from a re-analysis of the deposited data

Results flagged for a closer look

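The KO minus WT difference at lost bare sites had opposite signs at different stages for both marks, and this difference between stages was not tested, since each stage has 1 library per genotype. For H3K4me3 it was -7.74 percentage points in mESC and -5.74 in EBs at week 1, against 2.46 at week 2 and 2.32 at week 3. For H3K27me3 the undifferentiated cells had -28.0 points, week 1 EBs 1.18, week 2 EBs -22.0 and week 3 EBs -11.95. All WT Oct4 sites showed the same signs, with -8.16, -6.16, 5.54 and 3.745 points for H3K4me3 and -26.6, 1.25, -17.7 and -11.4 for H3K27me3.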

How the results depend on the processing

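No paired analysis was possible because each group holds 1 library. Of 87 alternative values for 19 results, 49 moved by less than the counting interval and 38 by more, of which 2 changed sign. The octamer difference from Sox2/Nanog sites went from -2.20 points to 0.771 within height groups, and to -0.799 with a 1000 bp limit. The share of lost bare sites was 32.6% with a 500 bp limit, 30.35% with 1000 bp, 35.3% at 10 kb or more from Uhrf1 windows, 24.4% above the median height and 37.7% without the frequent 20 bases. With a 1000 bp limit, the differences from Sox2/Nanog sites were -25.8 points for H3K4me3, 9.87 for H3K9me3, -9.91 for H3K4me3 kept in KO and -6.68 for promoters, and the H3K4me3 difference from window sites was 21.8. Within height groups the promoter difference was -6.62 and the H3K27me3 difference from window sites -8.60. Promoters within 5 kb differed by -3.055 points.

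With domains at or above the median score, H3K4me3 differed by -11.7 points from Sox2/Nanog sites and 21.7 from window sites. KO minus WT was then -4.38 in mESC, -4.205, 0.786 and 1.36 at weeks 1 to 3 for H3K4me3, and -23.4 in mESC and -10.6 at week 3 for H3K27me3. For sites above the median height, KO minus WT of H3K4me3 was -10.5 in mESC, 4.16 in week 2 EBs and 3.96 in week 3 EBs. That of H3K27me3 was -23.75 in mESC, 1.98 in week 1 EBs and -13.5 in week 2 EBs, and that of H3K9me3 was 13.7. Chosen after seeing the data, leaving out sites with the frequent 20 bases gave -13.3 and 31.7 points for H3K4me3 against Sox2/Nanog and window sites, -9.84 for H3K27me3 against window sites, 0.386 for promoters (from -0.816, the other change of sign), and KO minus WT of 9.54 for H3K9me3, -6.57 for H3K4me3 at week 1 and -19.5 for H3K27me3 at week 2. Dropping KO H3K27me3 domains whose mean count was under that of every WT domain left 84 domains and a difference of -31.5. The cause of these shifts was not tested. Depth of the KO Oct4 library limits what can be said of low sites.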
